A study of Mus musculus with 12 samples.

Results

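This account covers 10 long noncoding RNA genes in mouse macrophages kept at low oxygen: the nuclear RNAs *Malat1*, *Neat1* and *Kcnq1ot1*, the small nucleolar RNA (snoRNA) hosts *Gas5*, *Snhg1*, *Snhg5*, *Snhg8*, *Snhg12* and *Epb41l4aos*, and the microRNA host *Mir22hg*. They were chosen by name from the deposited table, which held all 10 among its 13232 genes. The cells were grown from bone marrow with the growth factor M-CSF (20 ng/ml). The donors were wild-type C57B6/J mice on a normal diet, written ND here, or on one high in fat, written HFD. Under both diets the culture became serum-free on day 4 and was kept for 1 h at 1% oxygen on day 7. Each diet had 3 hypoxic libraries of ribosome-depleted RNA, and the 6 libraries kept at normal oxygen were not analysed here, so no response to hypoxia is described. Feeding time, age and pooling of mice are not given in the labels, nor whether a library is 1 mouse, so p-values measure only the spread between these libraries.

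Nuclear long noncoding RNAs act as RNA and not as a template for protein. *Malat1* gathers in nuclear speckles, the stores of splicing factors, and *Neat1* is the scaffold on which paraspeckles are built. *Kcnq1ot1* is made from the paternal copy of an imprinted region and silences neighbouring genes on the same chromosome. The host genes carry snoRNAs in their introns, and these small RNAs guide the chemical modification of ribosomal RNA, while the spliced remainder of several hosts, *Gas5* among them, is removed by nonsense-mediated decay.

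Genes of the translation machinery and many snoRNA hosts are known for a stretch of pyrimidines at the start of their transcripts. The start regions of 5 hosts, and of *Malat1* and *Mir22hg* for comparison, are shown from 25 bases before the annotated start, 50 bases each, from RefSeq on GRCm38.p6. Capitals mark the longest unbroken run of C or T on the sense strand, or the first of equal runs, as in *Malat1*.
Gas5, chr1:161035141-161035190, plus strand: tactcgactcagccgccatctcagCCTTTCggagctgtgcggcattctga
Snhg1, chr19:8723462-8723511, plus strand: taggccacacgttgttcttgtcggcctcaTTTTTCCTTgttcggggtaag
Snhg5, chr9:88522873-88522922, minus strand: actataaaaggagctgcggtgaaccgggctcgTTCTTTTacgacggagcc
Snhg8, chr3:123508312-123508361, minus strand: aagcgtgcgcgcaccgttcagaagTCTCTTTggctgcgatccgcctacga
Snhg12, chr4:132308653-132308702, plus strand: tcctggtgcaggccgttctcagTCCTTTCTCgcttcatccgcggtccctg
Malat1, chr19:5802648-5802697, minus strand: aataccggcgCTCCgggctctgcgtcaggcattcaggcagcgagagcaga
Mir22hg, chr11:75461514-75461563, plus strand: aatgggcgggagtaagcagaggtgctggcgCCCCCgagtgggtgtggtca

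The runs of the 5 hosts were 6 bases long in *Gas5*, 7 in *Snhg5* and *Snhg8*, and 9 in *Snhg1* and *Snhg12*, beside 4 in *Malat1* and 5 in *Mir22hg*. Counting the annotated start as 1 and the base before it as -1, the run began at -1 in *Gas5* and *Snhg8* and at -3 in *Snhg12*, across the start. In *Snhg1* and *Snhg5* it began at 5 and 8, downstream of the annotated start and not at it. Of all 32851 start windows of this length, 43.9% held a run of at least 6 bases, 29.3% of at least 7 and 13.3% of at least 9. A second annotated start of *Gas5*, further upstream, had a longest run of 3. The letters ACGTG, the core of the site bound by hypoxia-inducible factors, were sought on both strands of the full 300-base windows. They occurred in 5 of 9 windows of 8 members (those of *Malat1*, *Snhg1*, *Snhg5*, *Kcnq1ot1* and *Mir22hg*) and in 19.6% of all windows. These matches describe letters only. *Neat1* and *Epb41l4aos* were not searched.

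The mature arms of miR-22 lie in an exon of *Mir22hg*. They are shown because this host had the largest fold change of the 10 genes with all 6 libraries. Capitals mark the seed, bases 2 to 8.
mmu-miR-22-5p, chr11:75463734-75463755, plus strand: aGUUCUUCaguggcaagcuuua
mmu-miR-22-3p, chr11:75463772-75463793, plus strand: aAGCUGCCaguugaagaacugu

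The small RNA was not measured, so all values of *Mir22hg* are those of its host transcript.

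Gene positions are those of GENCODE M21 on GRCm38, the assembly also called mm10. *Malat1* (chr19:5795690-5802672) and *Neat1* (chr19:5824708-5845478) are neighbours on the minus strand, 22035 bases apart. *Kcnq1ot1* (chr7:143203458-143296549, minus strand) lies wholly inside *Kcnq1*, on the opposite strand. *Gas5* (chr1:161034422-161038539), *Snhg1* (chr19:8723475-8726443), *Snhg12* (chr4:132308623-132311024) and *Mir22hg* (chr11:75461539-75466676) lie on the plus strand, and *Snhg5* (chr9:88521050-88522929) and *Snhg8* (chr3:123507552-123508404) on the minus strand. The 6 hosts hold 27 snoRNA gene models under 25 names, all on the host's strand: 10 models in *Gas5*, 8 in *Snhg1*, 5 in *Snhg12*, 2 in *Snhg5* and 1 each in *Snhg8* and *Epb41l4aos*. Of these only *Snord22*, inside *Snhg1*, has a row in the table.

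Estimated depth was 19046400 to 22805200 reads under ND and 23017100 to 24491500 under HFD. On the first principal component (43.3% of the variance) ND replicate 3 scored 3.43, within the range of HFD (1.33 to 11.4) and apart from the other ND libraries (-14.0 and -13.5). All 8 macrophage markers were in the table, with a summed value of 349027 to 397861 under ND and 346912 to 406925 under HFD. The table held 6 of 11 neutrophil, 3 of 8 stromal, 3 of 5 endothelial, 1 of 7 B cell, 1 of 9 T or NK cell, 1 of 6 mast cell or basophil, 0 of 7 erythroid and 0 of 6 dendritic cell markers, and the defining *Cd3e*, *Ly6g* and *Pdgfra* were not listed. The stromal markers summed to 177 to 549 under ND and 51.8 to 337 under HFD and the endothelial ones to 2569.7 to 3799 under ND and 2305 to 2381 under HFD. The single B cell marker had values of 1889 to 3061 under ND and 1876 to 2075 under HFD, the T or NK cell marker 202 to 356 under ND and 98.1 to 230.0 under HFD, and the mast cell or basophil marker 117 to 226 under ND and 72.4 to 104 under HFD. Each of these 3 had a fold change below 0 at an unadjusted limma p under 0.05. The mast cell or basophil marker and 1 of 3 endothelial markers were lower under HFD without overlap, as were 7.07% of all genes. A fold change below 0 at such a p was also found for 1 of 3 stromal markers, all with fold changes below 0, and 2 of 3 endothelial ones, of which the other had a fold change above 0, against 5.18% of all genes lower at such a p. The 6 neutrophil markers, all with fold changes above 0 and overlapping diets, summed to 2325 to 3358 under ND and 2356 to 3633 under HFD. The part of these other cell types in the results was not tested.

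Values are gene counts estimated by the authors and divided by a size factor for each library, called normalized values here and given in the order of replicates 1 to 3. Diets were compared with limma on log2(value + 1), fold changes are HFD minus ND on that scale with limma's standard error (SE), and adjusted p-values follow Benjamini and Hochberg with every gene of the table. None of the 10 genes passed an adjusted p of 0.05 in limma, and no gene of the table did (0%). At an unadjusted limma p under 0.05 there were 2 of the 10 genes, against 10.6% of all genes. These were *Mir22hg*, higher under HFD as were 5.4% of all genes, and *Neat1*, lower as were 5.18%. Diets did not overlap for 2 of the 10 genes, against 14.5% of all genes. Both, *Neat1* and *Epb41l4aos*, were lower under HFD (7.07% of all genes), and 0 of the 10 were higher without overlap (7.44%). Of the 10 fold changes 6 were below 0, against 51.1% of all genes, and their median was -0.076 beside -0.00342 over all genes. In bulk RNA, fewer cells of a type and less RNA per cell cannot be told apart.

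**Figure D1:**
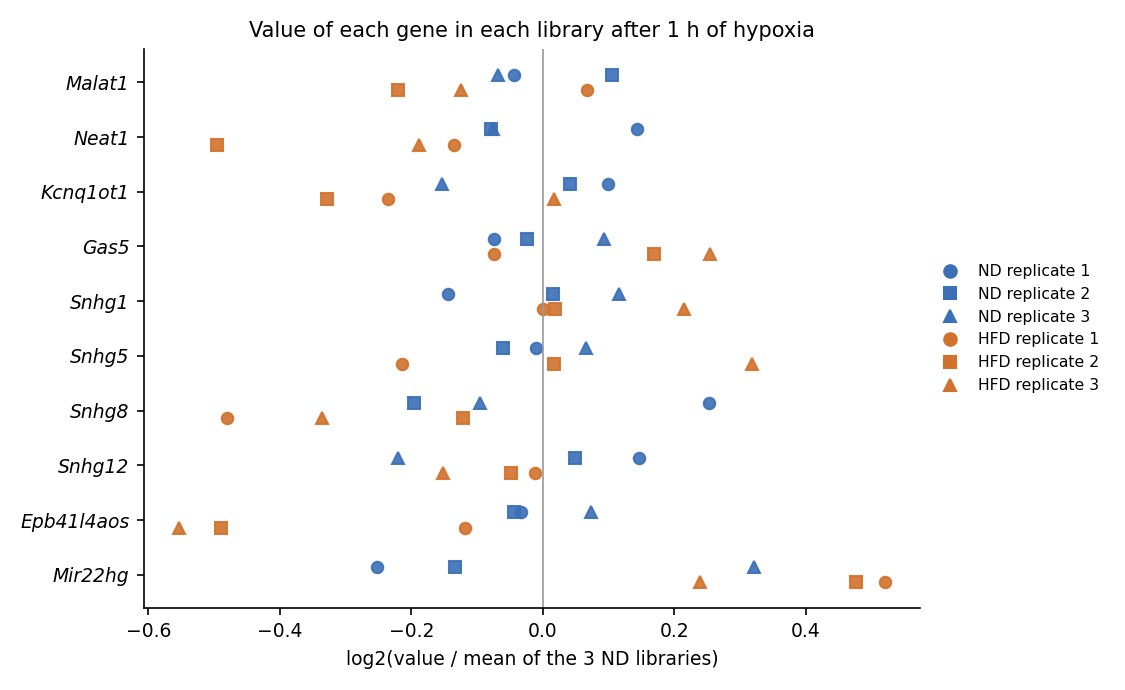
Value of each of the 10 genes in each library, as log2 of its ratio to the mean of the 3 ND libraries. The diets do not overlap for *Neat1* and *Epb41l4aos* and overlap for the other 8 genes.

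Levels are compared between genes per kb of annotated exon, as the mean normalized value of the 6 libraries. *Malat1* was highest at 32726 per kb, followed by *Neat1* (702), *Mir22hg* (470.5), *Gas5* (217) and *Epb41l4aos* (162). Lower levels per kb were those of *Snhg5* (106), *Snhg8* (106), *Snhg1* (81.7), *Snhg12* (48.0) and *Kcnq1ot1* (31.8). The ranges over libraries overlapped between *Neat1* and *Mir22hg*, between *Epb41l4aos* and *Snhg5*, between *Snhg5* and *Snhg8*, and between *Snhg8* and *Snhg1*, and not between the other neighbours in this order. The exon length was 20.8 kb for *Neat1*, whose short and long forms share 1 row, and 93.1 kb for *Kcnq1ot1*. Annotated exons cover the whole gene in *Snhg1* (2969 bases), *Snhg8* (853) and *Snhg12* (2402), so no intron is left out of their length. In *Mir22hg* they cover 1924 of 5138 bases and in *Epb41l4aos* 430 of 1095. The order of levels depends on these lengths.

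**Figure D2:**
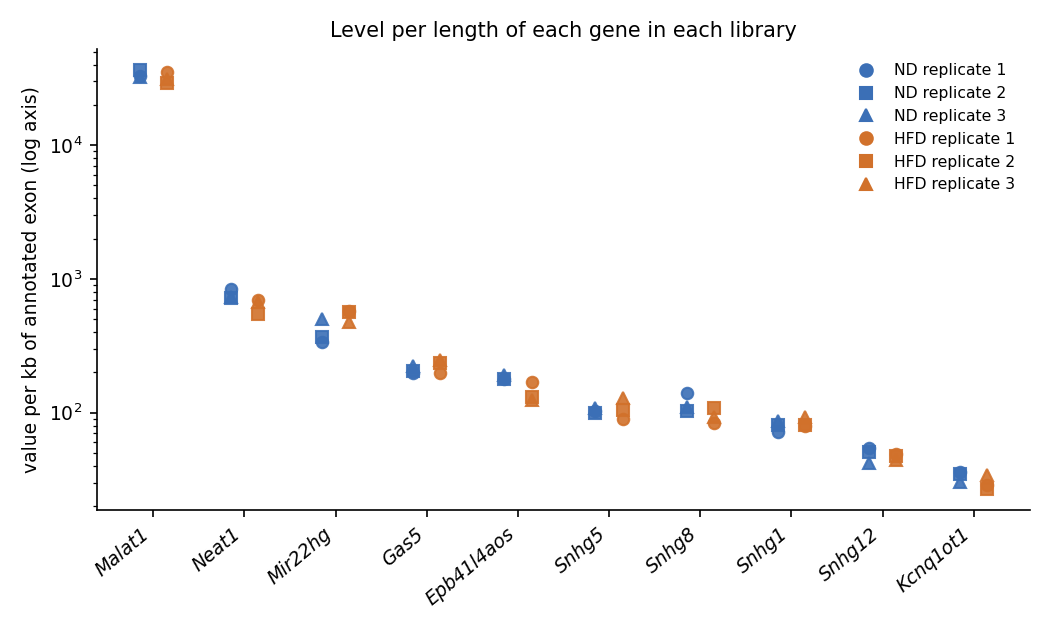
Normalized value per kb of annotated exon (logarithmic axis) of the 10 genes in each library. *Malat1* lies between 28951 and 36275 per kb, and *Kcnq1ot1* between 26.9 and 36.1.

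*Malat1*, the speckle RNA, was measured at 228291, 253311 and 224671 under ND and at 246729, 202164 and 216007 under HFD. The diets overlapped, with the highest value in ND replicate 2 and the lowest in HFD replicate 2. It made up 0.889% to 1.14% of a library's total. Its log2 fold change was -0.090 (SE 0.12, 95% interval -0.36 to 0.18, limma adjusted p 0.841), with -0.17 to -0.026 when 1 library was left out.

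*Neat1*, the paraspeckle scaffold, was measured at 17568, 15057 and 15094 under ND and at 14481, 11280.1 and 13959 under HFD. Every HFD library lay below every ND library. HFD replicate 2 was the lowest, and HFD replicate 1 lay close under the lowest ND values. The means were 15906 ± 1439 under ND and 13239.9 ± 1717 under HFD (SD, n = 3 each). The log2 fold change was -0.27 (0.830 times, from means of log2(value + 1), SE 0.10, 95% interval -0.50 to -0.036, limma adjusted p 0.404). It was -0.31 without ND replicate 3 and -0.16 without HFD replicate 2. With limma array weights, which gave HFD replicate 2 the weight 3.09 and ND replicate 3 the weight 0.441, it was -0.45 and passed (limma adjusted p 0.0242, with a range of 0.0242 to 0.948 over all alternatives), where 8.56% of all genes passed.

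A row of ribosomal RNA left in the libraries was set beside *Neat1*. The row *CT010467.1*, which GENCODE types as ribosomal RNA and which was chosen after its values were seen, was measured at 372281, 222398 and 294109 under ND and at 278851, 103220 and 229918 under HFD. Like *Neat1* it was highest in ND replicate 1 and lowest in HFD replicate 2. Unlike *Neat1*, its ND replicate 2 lay below HFD replicates 1 and 3, so its diets overlapped (log2 fold change -0.63, SE 0.33, limma adjusted p 0.552). Its part in the values of *Neat1* was not tested. Relative to its neighbour *Malat1*, *Neat1* stood at 7.70%, 5.94% and 6.72% under ND and at 5.87%, 5.58% and 6.46% under HFD. These ratios overlapped (exact two-sided permutation test on their logarithms, added after the values were seen, p = 0.2, with 0.1 the smallest that 3 against 3 allow).

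**Figure D3:**
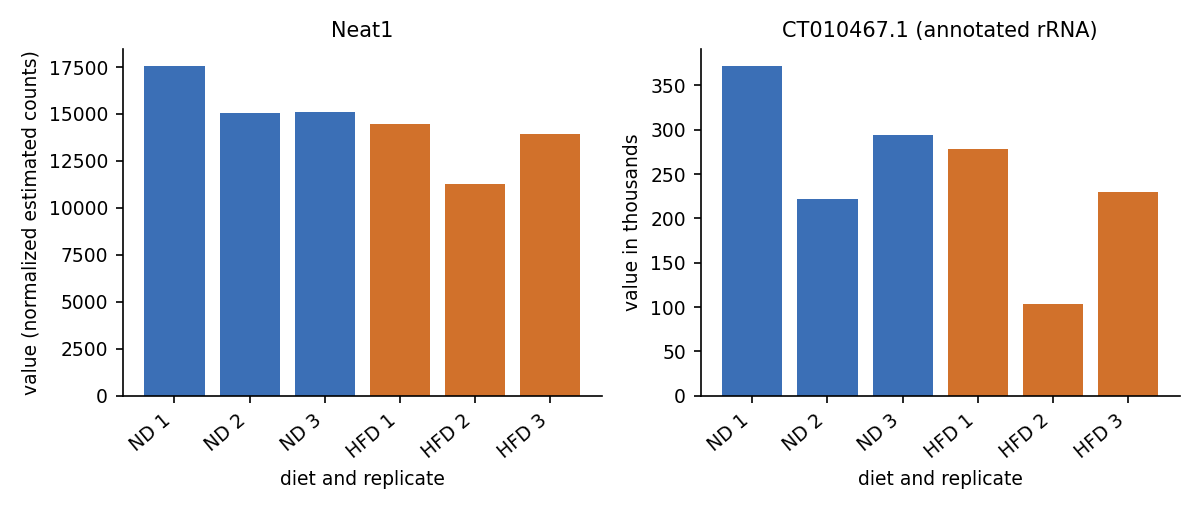
Normalized values of *Neat1* (left) and of the ribosomal RNA row *CT010467.1* (right) in each library. Both are highest in ND replicate 1 and lowest in HFD replicate 2, and only *Neat1* separates the diets.

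*Kcnq1ot1*, the imprinted antisense RNA, was measured at 3365, 3234 and 2826 under ND and at 2668, 2501 and 3180.5 under HFD. HFD replicates 1 and 2 lay below all ND libraries, and HFD replicate 3 lay among them. The log2 fold change was -0.18 (SE 0.098, 95% interval -0.40 to 0.042, limma adjusted p 0.578). It passed with array weights at -0.32 (limma adjusted p 0.0343, range over alternatives 0.0343 to 0.970) where 8.56% of all genes did. It was -0.25 without ND replicate 3 and -0.11 without HFD replicate 2. The counting is not stated to use strand, so reads from introns of *Kcnq1* cannot be told apart from it. *Kcnq1* itself has no row in the table, and the part of such reads was not tested.

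*Gas5*, a host named for its rise in growth-arrested cells, was measured at 742, 768 and 834 under ND and at 742, 879 and 933 under HFD. HFD replicates 2 and 3 were above all ND libraries, and HFD replicate 1 was the lowest of the 6. The log2 fold change was 0.12 (SE 0.094, 95% interval -0.093 to 0.33, limma adjusted p 0.706), with 0.049 to 0.21 when 1 library was left out. The 6 proliferation markers, all with fold changes below 0, summed to 8898 to 9877 under ND and 7546 to 10678 under HFD. Of the 6, 3 were lower under HFD at an unadjusted limma p under 0.05 (against 5.18% of all genes). Without overlap 1 of the 6 was lower (against 7.07% of all genes). Their part in the level of *Gas5* was not tested. It shares 428 bases with *Zbtb37* on the other strand, where reads cannot be assigned without strand.

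*Snhg1*, the host of *Snord22*, was measured at 213, 238 and 255 under ND and at 236, 239 and 274 under HFD. The diets overlapped, with a log2 fold change of 0.081 (SE 0.11, 95% interval -0.16 to 0.33, limma adjusted p 0.841), and 0.012 to 0.14 when 1 library was left out. The row of *Snord22*, which lies inside an annotated exon of the host on the same strand and may hold reads of host transcripts, was measured at 60.05, 76.5 and 145 under ND and at 140.2, 156 and 76.1 under HFD. Both were lowest in ND replicate 1, while HFD replicate 3 was highest for the host and low for *Snord22*, whose log2 fold change was 0.44 (SE 0.34, limma adjusted p 0.701). Leaving out ND replicate 1 gave 0.17 and leaving out ND replicate 3 gave 0.80, and over all alternatives the limma adjusted p of *Snord22* ranged from 0.0489 to 0.987, the lowest with array weights.

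*Snhg5*, the host of *Snord50a* and *Snord50b*, was measured at 178, 172 and 188 under ND and at 155, 182 and 224 under HFD. The HFD libraries lay on both sides of ND, with a coefficient of variation of 18.6% against 4.43%. Its log2 fold change of 0.041 (SE 0.14, 95% interval -0.27 to 0.36, limma adjusted p 0.943) turned to -0.097 without HFD replicate 3, and it was 0.075 without ND replicate 3.

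*Snhg12*, the host of *Snora16a*, *Snora44*, *Snora61* and *Snord99*, was measured at 131, 122 and 101 under ND and at 117, 114 and 106 under HFD. All HFD values lay within the range of ND. Its log2 fold change was -0.062 (SE 0.14, 95% interval -0.38 to 0.25, limma adjusted p 0.909) and turned to 0.015 without ND replicate 1, and it was -0.17 without ND replicate 3.

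*Snhg8*, the host of *Snora24*, was measured at 119, 87.0 and 93.3 under ND and at 71.5, 91.7 and 79.0 under HFD. HFD replicates 1 and 3 lay below all ND libraries, and HFD replicate 2 lay among them. The log2 fold change was -0.30 (SE 0.17, 95% interval -0.68 to 0.088, limma adjusted p 0.597), -0.16 without ND replicate 1 and -0.34 without ND replicate 3. Its estimated 73.0 to 119 reads per library give a counting error of 10.5%.

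*Epb41l4aos*, an antisense host next to *Epb41l4a*, was measured at 76.8, 76.3 and 82.7 under ND and at 72.4, 56.0 and 53.6 under HFD. Every HFD library lay below every ND library, HFD replicate 1 only just. The means were 78.6 ± 3.54 and 60.7 ± 10.3 (SD, n = 3 each). The log2 fold change was -0.38 (0.768 times, from means of log2(value + 1), SE 0.17, 95% interval -0.77 to 0.010, limma adjusted p 0.486), and -0.34 without ND replicate 3. Its 58.0 to 78.0 estimated reads give a counting error of 12.0%, the largest of the 10 genes.

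*Mir22hg*, the precursor of miR-22, was measured at 651, 706 and 968 under ND and at 1112, 1079 and 915 under HFD. HFD replicates 1 and 2 were above all ND libraries, but ND replicate 3 was above HFD replicate 3. The means were 775 ± 169 under ND and 1035 ± 105 under HFD (SD, n = 3 each). With a log2 fold change of 0.43 (1.35 times, from means of log2(value + 1), SE 0.14, 95% interval 0.12 to 0.75) it had the largest difference of the 10 genes with all 6 libraries, at a limma adjusted p of 0.324. *Epb41l4aos* differed more in size without ND replicate 1 (-0.40 beside 0.32), without ND replicate 2 (-0.40 beside 0.38, with *Snhg8* at -0.39) and without HFD replicate 1 (-0.51 beside 0.38). *Mir22hg* passed without ND replicate 3 at 0.60 (limma adjusted p 0.0206), where 1.76% of all genes passed. With array weights it passed at 0.60 (limma adjusted p 0.00995), where 8.56% of all genes did, and over all alternatives the limma adjusted p spanned 0.00995 to 0.932. *Tlcd2*, which shares 4962 bases with it on the same strand in GENCODE, was measured at 57.5, 48.5 and 40.5 under ND and at 26.8, 30.9 and 44.6 under HFD. The means of *Tlcd2* went the other way with overlapping diets (log2 fold change -0.52, SE 0.26, limma adjusted p 0.527), and how shared reads were divided is not given in the sources used here.

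**Figure D4:**
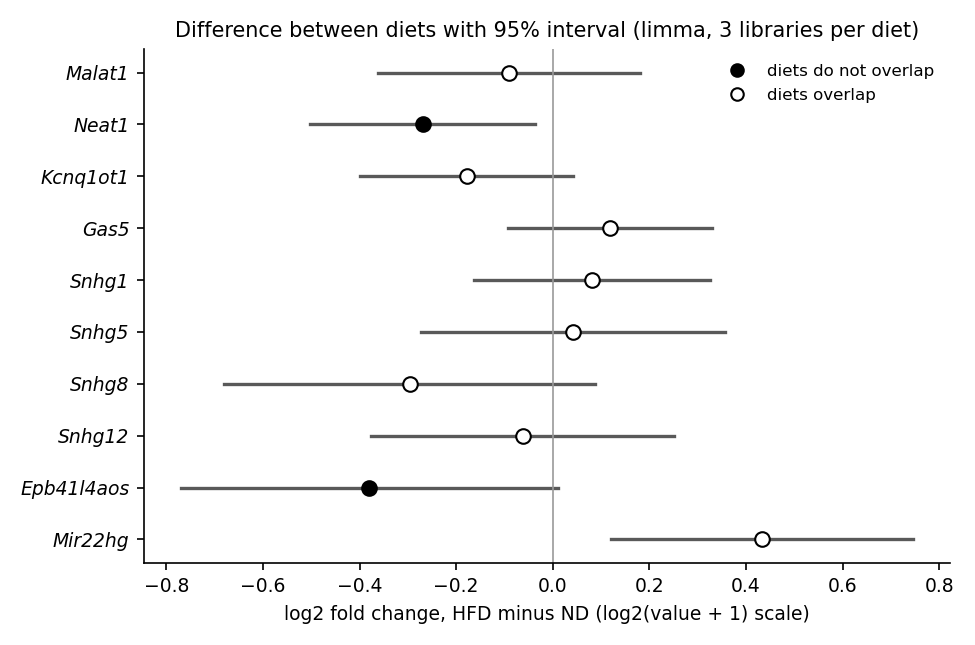
Log2 fold change of each gene, HFD minus ND, with its 95% interval from limma. Only the intervals of *Mir22hg* (0.12 to 0.75) and *Neat1* (-0.50 to -0.036) exclude 0, before adjustment.

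Counts over the 10 genes moved with single libraries, as did those over all genes. Diets did not overlap for 2 of the 10 without ND replicate 1 (19.8% of all genes), 3 without ND replicate 2 (24%) and 5 without ND replicate 3 (35.9%). They did not overlap for 4 without HFD replicate 1 (30.5%), 3 in the absence of HFD replicate 2 (18.8%) and 4 without HFD replicate 3 (25%). An unadjusted limma p under 0.05 was reached by 0 of the 10 without ND replicate 1 (5.29% of all genes), 2 without ND replicate 2 (8.01%) and 3 without ND replicate 3 (17.5%). It was reached by 4 without HFD replicate 1 (12.6%), 1 in the absence of HFD replicate 2 (5.49%), 3 without HFD replicate 3 (9.17%) and 5 with array weights (27.6%). After adjustment 3 of the 10 passed with array weights (8.56% of all genes), 1 passed without ND replicate 3 (1.76%), and none passed without ND replicate 2 (0.00756% of all genes), without HFD replicate 1 (0.0151%) or with the replicate number as a block (0.234%).

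Other genes of the same pathways were taken from lists. None of them passed the adjusted threshold in the limma comparison described above, in which no gene of the table did. Over all genes 51.1% were lower under HFD. Of 14 other noncoding snoRNA hosts 9 were in the table, 5 higher and 4 lower under HFD, their median was 0.00517 on the log2 scale, and none was at an unadjusted limma p under 0.05 (against 10.6% of all genes). The smallest p belonged to *Snhg3* (log2 fold change 0.20, limma adjusted p 0.662) and *Snhg15* (-0.18, 0.712), which spanned 0.12 to 0.30 and -0.29 to -0.070 when 1 library was left out. Of 39 protein-coding hosts, many of them ribosomal protein genes, 37 were present, 15 higher and 22 lower, with a median of -0.023, 1 at an unadjusted p under 0.05 (against 10.6% of all genes) and 6 without overlap (against 14.5% of all genes), 4 of them lower and 2 higher. The gene with the smallest p was *Rpl13a*, a protein of the large ribosomal subunit, measured at 3773, 3975 and 4289.5 under ND and at 3619, 3589.8 and 3308 under HFD (log2 fold change -0.19, SE 0.069, limma adjusted p 0.370). All its HFD values were below ND, as were those of *Rpsa*, of the small subunit (-0.13, 0.525, and -0.082 without ND replicate 3), while those of the ribosomal protein genes *Rps12* (0.17, 0.606) and *Rpl10* (0.10, 0.676), named after their values were seen, were all above ND.

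The proteins that build snoRNA particles were present for 20 of 21, 16 higher and 4 lower under HFD (51.1% of all genes were lower). Their median on the log2 scale was 0.067, with 1 at an unadjusted p under 0.05 (against 10.6% of all genes). *Nop10*, a core protein of box H/ACA particles, was measured at 227, 241 and 236 under ND and at 242, 290.5 and 361 under HFD. Its diets did not overlap, HFD replicate 3 was highest, and HFD replicate 1 lay just above ND (log2 fold change 0.33, SE 0.14, limma adjusted p 0.447). Without HFD replicate 3 it was 0.18. *Nolc1*, a nucleolar chaperone of these particles, was at 0.25 (0.492) with overlapping diets, and at 0.13 without HFD replicate 3. *Nop56*, *Nop58* and *Dkc1* count here and among the coding hosts.

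Paraspeckle proteins were present for 25 of 26, 13 higher and 12 lower, with a median of 0.00526, 1 at an unadjusted p under 0.05 (against 10.6% of all genes) and 4 without overlap (against 14.5% of all genes), 3 of them higher. The 3 proteins that bind *Neat1* as its core partners had log2 fold changes of -0.035 for *Sfpq* (95% interval -0.18 to 0.11), -0.037 for *Nono* (-0.19 to 0.11) and -0.000996 for *Pspc1* (-0.21 to 0.21). The smallest p belonged to the RNA-binding proteins *Dazap1* (0.15, limma adjusted p 0.452) and *Hnrnpa1* (0.13, 0.548), both higher under HFD without overlap.

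Speckle proteins and partners of *Malat1* were present for 25 of 25, 9 higher and 16 lower, with a median of -0.012. *Srsf1*, a splicing factor bound by *Malat1*, was at 0.00960 on the log2 scale (95% interval -0.13 to 0.14). *Ddx39b*, a helicase of splicing and RNA export, was measured at 1943, 1867 and 2052 under ND and at 2175, 2197 and 2262 under HFD. It was higher under HFD without overlap and the 1 gene of this list at an unadjusted p under 0.05, against 10.6% of all genes (log2 fold change 0.18, SE 0.061, limma adjusted p 0.357, with a range of 0.0444 to 0.928 over all alternatives). It passed with array weights, where 8.56% of all genes did. Next by p was the splicing regulator *Tra2a* (-0.14, 0.530).

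Factors of nonsense-mediated decay were present for 22 of 22, 7 higher and 15 lower, with a median of -0.037. *Upf1*, the central helicase, was at -0.039 (95% interval -0.20 to 0.12). *Rbm8a*, of the exon junction complex, was measured at 522, 539 and 508 under ND and at 471, 454 and 464 under HFD. Its HFD values all lay below ND, the 1 gene of this list at an unadjusted p under 0.05, against 10.6% of all genes (log2 fold change -0.18, SE 0.072, limma adjusted p 0.435), and *Smg6*, the endonuclease, was at -0.16 (0.582) with overlap, and at -0.078 without HFD replicate 3.

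**Figure D5:**
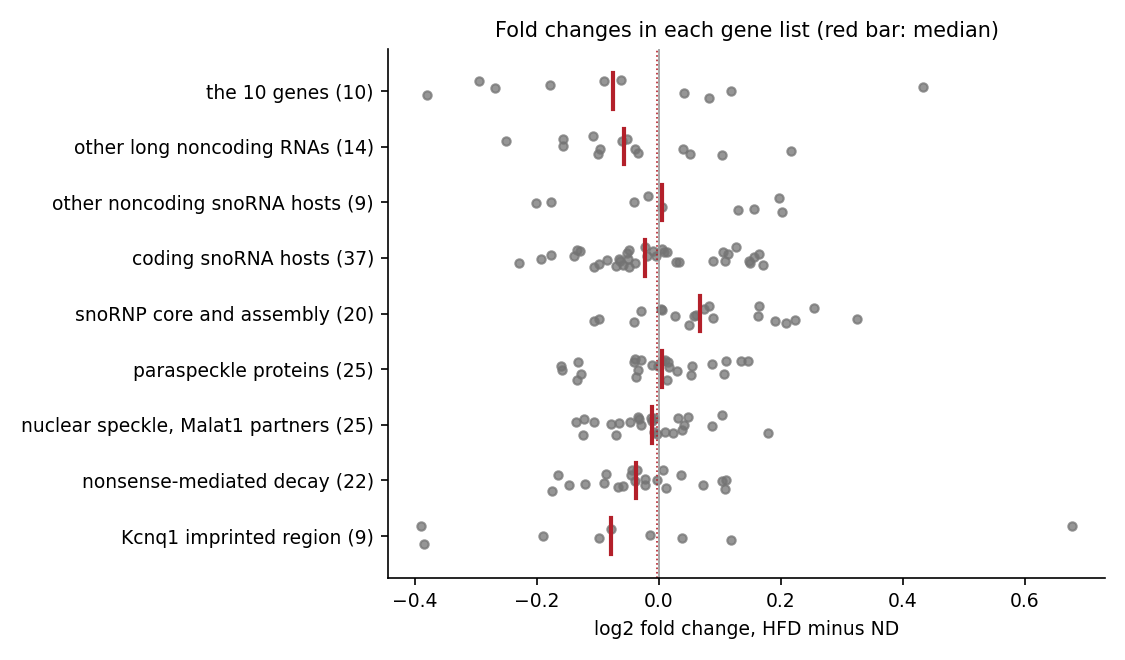
Log2 fold change, HFD minus ND, of every gene of each list in the table, with the list median. The list medians lie between -0.079 and 0.067.

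Genes of the imprinted region of *Kcnq1ot1* were present for 9 of 17, 3 higher and 6 lower under HFD, and their median on the log2 scale was -0.079. *Cdkn1c*, the cell cycle inhibitor that this RNA silences, was measured at 360.2, 310.0 and 305 under ND and at 342, 316 and 305 under HFD. Its diets overlapped (log2 fold change -0.015, 95% interval -0.24 to 0.21). An unadjusted limma p under 0.05 was reached by 4 of the 9 (against 10.6% of all genes), of which *Cd81*, a tetraspanin, was measured at 4051, 4112 and 4165 under ND and at 3724, 3686 and 3399.7 under HFD, lower under HFD without overlap (log2 fold change -0.19, SE 0.060, limma adjusted p 0.319). *Slc22a18*, a membrane transporter, was measured at 22.9, 30.3 and 34.2 under ND and at 42.1, 41.5 and 58.1 under HFD. It was the 1 of the 4 higher under HFD (log2 fold change 0.68, SE 0.25, limma adjusted p 0.392). Its means, 29.2 under ND and 47.2 under HFD, were below those of *Epb41l4aos*, and its counting error was not estimated. Diets did not overlap for 4 of the 9 (against 14.5% of all genes), 2 of them higher and 2 lower. Other nuclear long noncoding RNAs were present for 14 of 28, 4 higher and 10 lower, with a median of -0.057 and none at an unadjusted limma p under 0.05 (over all genes, 51.1% were lower and 10.6% at such a p). Their smallest p belonged to *Ftx*, of the X inactivation centre (-0.25, limma adjusted p 0.586), and *Lncpint* (-0.16, 0.599), at -0.16 and -0.070 without HFD replicate 2.

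Nearest genes of the table on either side of the members, by RefSeq, were also read. Beside *Neat1*, *Frmd8* was at 0.090 on the log2 scale. *Gas5* lies between *Rc3h1* (0.031) and *Cenpl* (-0.28) and overlaps *Zbtb37* (-0.18). *Slc3a2*, 117 bases from *Snhg1*, was at 0.057, and *Wdr74* on its other side at 0.15. The neighbours of *Snhg5* were *Syncrip* (0.13) and *Zfp949* (-0.18), those of *Snhg8* *Mettl14* (-0.054) and *Gm4617* (-0.10), and those of *Snhg12* *Taf12* (0.00296) and *Trnau1ap* (-0.070). *Epb41l4aos* lies between *Gm5503* (-0.087) and *Apc* (-0.16), *Kcnq1ot1* between *Tssc4* (-0.079) and *Cdkn1c*, and *Mir22hg* after *Wdr81* (-0.013). Besides *Neat1*, the neighbour of *Malat1*, *Cenpl*, a centromere protein, was the 1 of the neighbours given here at an unadjusted limma p under 0.05 (adjusted p 0.431). With array weights *Cenpl* (limma adjusted p 0.0469) and *Zbtb37* (0.0450) passed, as did 8.56% of all genes. Their limma adjusted p reached 0.956 and 0.956 under other alternatives. Of the neighbours' fold changes given here, each but that of *Cenpl* moved by over 1.5 times when 1 library was left out. *Frmd8* then spanned 0.027 to 0.13, *Rc3h1* 0.00996 to 0.057, *Zbtb37* -0.28 to -0.13, *Wdr74* 0.054 to 0.29, *Syncrip* 0.066 to 0.21 and *Zfp949* -0.33 to -0.097. *Mettl14* spanned -0.12 to -0.013, *Trnau1ap* -0.11 to -0.018, *Apc* -0.29 to -0.068 and *Tssc4* -0.17 to -0.00220, and the others took either sign.

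Among 10793 other genes with a mean of at least 100, the patterns over the 6 libraries most like *Malat1* were those of *AC160336.1* (Pearson r 0.986), *Zfand1* (0.982) and *Tjap1* (0.982). Those most like *Neat1* were *Ccdc163* (0.995), *Ints7* (0.988) and *Ints6l* (0.988), and those most like *Gas5* were *Stim2* (0.997), *Cycs* (0.995) and *Adss* (0.993). The points share libraries and scaling, and these are the highest of many values.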

How the data were processed

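Libraries were made from 100 ng of RNA with a stranded kit and read as single 75-base reads, per the labels' protocols. STAR, Partek and mm10 are named without versions, per the submitters' processing notes, and the counter, annotation and filters are not given in the sources used here. In the deposited table the unit is a signal, that is, estimated gene counts scaled by the authors with a size factor, as read from the values. Between 5 and 1000, 57.0% to 58.4% were whole multiples of the value of 1 read, within 0.02 of a read, so reads were not recovered and no count test was run. Columns marked NC were read as the normal diet, which is an assumption. Counting errors cover counting only.

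Diets were compared with limma 3.58.1 in R 4.3.3 on log2(value + 1) with a mean-variance trend, two-sided, with no filter and a threshold of 0.05 after Benjamini-Hochberg adjustment. The script was tested on simulated data with planted log2 differences of 1 and 2. These are larger than those of the members, and differences as small as theirs were not tested. The members and lists were chosen with earlier results of these data known. Named genes were the members, the 2 genes of each list with the smallest p, nearest neighbours (some are not reported here), the 3 most similar genes for *Malat1*, *Neat1* and *Gas5*, and known partners. Exon lengths and overlaps came from GENCODE M21. Alternatives varied pseudocount, filter, scaling, weights, block and libraries.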

Additional observations from a re-analysis of the deposited data

How the results depend on the processing

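No gene passed with another pseudocount (0.1 or 10), either filter on low values, rescaling to the column total, quantile normalization or limma without the trend (1144 to 1408 at an unadjusted p under 0.05). The filter at a mean of 100 left 8 of the 10 members. Array weights gave 1133 genes and 3 members, and leaving out 1 library gave 0 to 233 genes and 0 to 1 members. The replicate block gave 31 genes and 0 members. Same-numbered libraries had residual correlations of -0.00865, -0.0374 and -0.000687. With 3 libraries per diet these cannot decide whether the numbers mark a pairing, which the labels do not give. The cause of these differences was not tested. Depth limits *Epb41l4aos* and *Snhg8* most.

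Among 148 values of the members under alternatives, 142 stayed on their side with their sign, 4 came to pass and 2 reversed, and among 762 of other named genes these were 727, 6 and 29. Log2 fold changes that reversed when 1 library was left out spanned -0.097 to 0.17 for *Snhg5*, -0.17 to 0.015 for *Snhg12*, -0.075 to 0.089 for *Taf12*, -0.051 to 0.080 for *Pspc1*, -0.012 to 0.048 for *Srsf1*, -0.073 to 0.017 for *Sfpq*, -0.097 to 0.00333 for *Nono*, -0.10 to 0.022 for *Upf1*, -0.062 to 0.061 for *Cdkn1c*, -0.054 to 0.049 for *Wdr81*, -0.026 to 0.11 for *Slc3a2*, -0.20 to 0.00394 for *Gm4617* and -0.25 to 0.028 for *Gm5503*. Array weights reversed *Gm4617* (0.032), *Taf12* (-0.057), *Tssc4* (0.059), *Wdr81* (0.029), *Sfpq* (0.000660) and *Pspc1* (0.017). Rescaling reversed *Taf12* (-0.00936) and *Srsf1* (-0.00275), and quantile normalization *Pspc1* (0.00117) and *Srsf1* (-0.000832).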
